A study of Mus musculus with 2 samples.

Results

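Cycling cells among the sorted fibro-adipogenic progenitors (FAPs) of juvenile limb muscle were selected on 5 transcripts, Mki67, Top2a, Birc5, Cenpf and Ube2c. A cell was taken as cycling when its summed raw count of the 5 genes was 3 or more unique molecular identifiers (UMIs, each of which tags 1 captured RNA molecule). Of 8481 cells in all, 173 were chosen by this rule, 57 of 4103 in the library labelled WT and 116 of 4378 in the library labelled cKO. Both libraries came from droplet single-cell RNA-Seq of C57BL/6 mice at 3 weeks of age, and each genotype had 1 library. The library labelled WT came from Bap1f/f littermates, and the library labelled cKO from Prx1-Cre;Bap1f/f mice, so the floxed Bap1 alleles were shared by both. Prx1-Cre acts in limb mesenchyme, from which FAPs, cartilage and bone of the limb descend, so the deletion was not restricted to FAPs. The cells were sorted from limb muscle as living cells negative for CD45, CD31 and Vcam1 and positive for Sca1. The number of mice behind each library was not given in the sources used here. Because each genotype had a single library, differences between libraries lack a replicate check, no p-value is given, and every interval is an exact 95% interval that covers counting error only.

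FAPs are mesenchymal cells between the fibers of skeletal muscle that make collagen and other matrix, secrete growth factors and can form fibroblasts or fat cells. Few of them divide in resting adult muscle, and they are more active in growing or injured muscle. A dividing cell passes from G1 through DNA synthesis (S) and G2 to mitosis (M), and cyclins bound to cyclin-dependent kinases drive each step, while inhibitors of these kinases hold cells outside the cycle. Of the genes that chose the cells, Mki67 encodes the Ki-67 coat of mitotic chromosomes, Top2a a topoisomerase that untangles sister DNA, and Birc5 survivin, a subunit of the chromosomal passenger complex. Cenpf encodes a kinetochore protein, and Ube2c the ubiquitin-conjugating enzyme of the anaphase-promoting complex. All of them are transcribed mostly in G2 and M, so the rule reaches cells late in the cycle more readily than cells in G1 or early S.

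The promoters of these genes are shown because the cells were found through their joint transcription. Genes of G2 and M are known to share a cell cycle homology region, with the core TTTGAA, bound by the DREAM and MuvB complexes, and CCAAT boxes bound by NF-Y. Each window runs from 250 bases before to 50 bases after the gene's start in the direction of transcription, from RefSeq on GRCm38.p6 (the assembly behind mm10), 5′ to 3′. The windows are chr7:135716330-135716629 (Mki67, minus strand), chr11:99024140-99024439 (Top2a, minus), chr11:117848987-117849286 (Birc5, plus), chr1:189688037-189688336 (Cenpf, minus) and chr2:164769679-164769978 (Ube2c, plus). Capitals mark TTTGAA and CCAAT on either strand, so TTCAAA and ATTGG are the same motifs read from the other strand.
Mki67: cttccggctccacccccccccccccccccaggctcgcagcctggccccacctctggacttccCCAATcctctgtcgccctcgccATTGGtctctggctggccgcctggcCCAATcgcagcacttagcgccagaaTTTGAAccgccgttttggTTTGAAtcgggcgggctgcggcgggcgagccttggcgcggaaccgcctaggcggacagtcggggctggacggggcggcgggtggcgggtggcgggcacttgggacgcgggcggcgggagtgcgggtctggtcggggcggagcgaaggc
Top2a: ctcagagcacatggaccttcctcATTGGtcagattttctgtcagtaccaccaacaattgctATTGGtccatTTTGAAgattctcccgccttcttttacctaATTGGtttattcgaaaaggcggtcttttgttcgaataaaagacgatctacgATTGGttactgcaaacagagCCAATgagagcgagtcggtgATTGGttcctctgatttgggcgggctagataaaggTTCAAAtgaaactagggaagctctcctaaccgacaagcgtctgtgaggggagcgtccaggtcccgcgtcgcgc
Birc5: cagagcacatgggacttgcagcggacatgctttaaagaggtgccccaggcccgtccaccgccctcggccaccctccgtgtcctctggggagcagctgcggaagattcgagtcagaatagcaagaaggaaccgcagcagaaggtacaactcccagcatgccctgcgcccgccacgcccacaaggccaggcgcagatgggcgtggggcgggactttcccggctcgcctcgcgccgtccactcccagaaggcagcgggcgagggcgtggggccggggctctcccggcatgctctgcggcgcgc
Cenpf: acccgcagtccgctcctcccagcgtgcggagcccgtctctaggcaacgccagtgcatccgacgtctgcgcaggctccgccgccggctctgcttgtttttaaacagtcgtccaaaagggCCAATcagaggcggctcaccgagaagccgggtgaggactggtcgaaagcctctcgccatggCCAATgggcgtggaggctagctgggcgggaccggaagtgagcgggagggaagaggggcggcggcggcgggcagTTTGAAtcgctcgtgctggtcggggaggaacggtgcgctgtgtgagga
Ube2c: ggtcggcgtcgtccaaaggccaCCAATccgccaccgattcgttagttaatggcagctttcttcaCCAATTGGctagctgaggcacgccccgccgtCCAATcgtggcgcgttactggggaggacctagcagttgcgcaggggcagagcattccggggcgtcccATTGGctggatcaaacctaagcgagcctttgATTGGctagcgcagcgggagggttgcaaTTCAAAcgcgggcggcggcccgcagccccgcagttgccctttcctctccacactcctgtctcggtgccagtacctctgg

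The Mki67 window held TTTGAA at 116 and 98 bases before the start and 3 CCAAT boxes upstream of them. Top2a held 2 TTTGAA and 6 CCAAT motifs, Cenpf 1 and 2, and Ube2c 1 and 6, with 2 of the Ube2c CCAAT motifs overlapping on opposite strands. The Birc5 window held neither, which says only that these letters are not in this window. Among 27025 genes with a promoter of this length, 18.1% held TTTGAA, 37.9% CCAAT and 7.12% both. Of 51 listed G2/M genes with a promoter, 34 (66.7%) held TTTGAA and 28 (54.9%) both motifs, whereas 5 of 38 S-phase genes (13.2%) held TTTGAA and 25 (65.8%) CCAAT. A match of letters is a description of the window and not a measured binding site.

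The deposited counts held 51015705 and 49540066 UMIs, with medians of 12232 and 11017.5 UMIs per cell in the libraries labelled WT and cKO. Bap1, the gene targeted by the deletion, had 897 UMIs (17.6 CPM, counts scaled to a common total per group of cells) in the library labelled WT and 1072 (21.6 CPM) in the library labelled cKO, so its counts were not lower there, and directions are given for the libraries as labelled. Counts from the 3′ end of a transcript need not cover the deleted exons, so they do not check the deletion. In the cycling cells Bap1 had 15 UMIs (18.8 CPM) and 34 UMIs (21.0 CPM). The libraries shared 5 cell barcodes, and no cycling cell had one of them.

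Cycling cells made up 1.39% (1.05 to 1.80) of the library labelled WT and 2.65% (2.19 to 3.17) of the library labelled cKO. The share in the library labelled cKO was 1.91 times (1.38 to 2.67) that in the library labelled WT, and the intervals of the shares did not overlap. With every cell thinned to 5000 UMIs the shares were 1.15% and 1.94%, with shallower cells left out (2 and 3 cycling cells, 117 and 201 cells with 0 UMIs). A further 198 cells (4.83%) and 249 cells (5.69%) had 1 or 2 UMIs of the 5 genes, and 3848 and 4013 cells had 0 and served as the comparison cells of the same library. The cycling cells held a median of 14 and 14.5 UMIs of the 5 genes, with up to 148 in the library labelled WT and 163 in the library labelled cKO. All 5 genes had a UMI in 24 of 57 and in 44 of 116 cycling cells.

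Each of the 5 genes was carried mainly by these cells, which is what the rule selects. Mki67 had 426 UMIs in the cycling cells of the library labelled WT (535 CPM) and 741 in those of the library labelled cKO (457 CPM), and 93.6% and 94.0% of all its UMIs. Cenpf had 375 and 764 UMIs (471 and 472 CPM), Top2a 349 and 747 (438 and 461 CPM), Ube2c 378 and 673 (475 and 415 CPM) and Birc5 320 and 544 (402 and 336 CPM). Between the cycling cells of the libraries, the log2 ratios of the 5 genes ran from -0.26 for Birc5 to 0.07 for Top2a. Mki67 was detected in 51 of 57 and 101 of 116 cycling cells, and Ube2c, the least often detected, in 32 and 67.

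Cells just inside the rule, with 3 or 4 UMIs, numbered 10 in the library labelled WT and 24 in the library labelled cKO. Their median of a list of 62 G2/M genes was 16.9 and 24.01 UMIs per 10000, against 12.9 and 23.7 in the 23 and 27 cells with exactly 2 UMIs. Cells on either side of the threshold were thus close in these genes in the library labelled cKO. Over all cycling cells the G2/M median was 121 and 73.9 UMIs per 10000, against 10.0 and 11.6 in the cells with 0 UMIs. The median of the S-phase list (51 genes) was 9.76 and 14.9 UMIs per 10000, against 4.11 and 4.92.

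The cycling cells of the library labelled cKO thus had a higher median of S-phase and a lower median of G2/M transcripts than those of the library labelled WT. Cells with 20 or more S-phase UMIs per 10000 numbered 20 of 57 (35.1%, 22.9 to 48.9) and 52 of 116 (44.8%, 35.6 to 54.3), and the intervals overlapped. After thinning to 5000 UMIs they were 32.7% and 46.0%, and the G2/M medians were 120 and 68 UMIs per 10000. The 5 cells high in the S-phase list alone, above the 95th percentile of the cells with 0 UMIs in that list and below it in the G2/M list, were in the library labelled cKO, 4.31% (1.41 to 9.77), against 0 of 57 in the library labelled WT, which allows a share of up to 5.26% by 3 counts and 6.27% as the exact upper limit. Both lists were above that percentile in 56.1% and 56.0% of the cycling cells, and the G2/M list alone in 31.6% and 31.0%. Of the cycling cells 11 and 25 lay within 1 S-phase or 5 G2/M UMIs per 10000 of a cut. The rule itself misses part of S phase, since 4.55% of the WT-labelled and 12.05% of the cKO-labelled cells with 1 or 2 UMIs of the 5 genes were also high in the S-phase list, against 0.390% and 1.196% of those with 0.

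**Figure D1:**
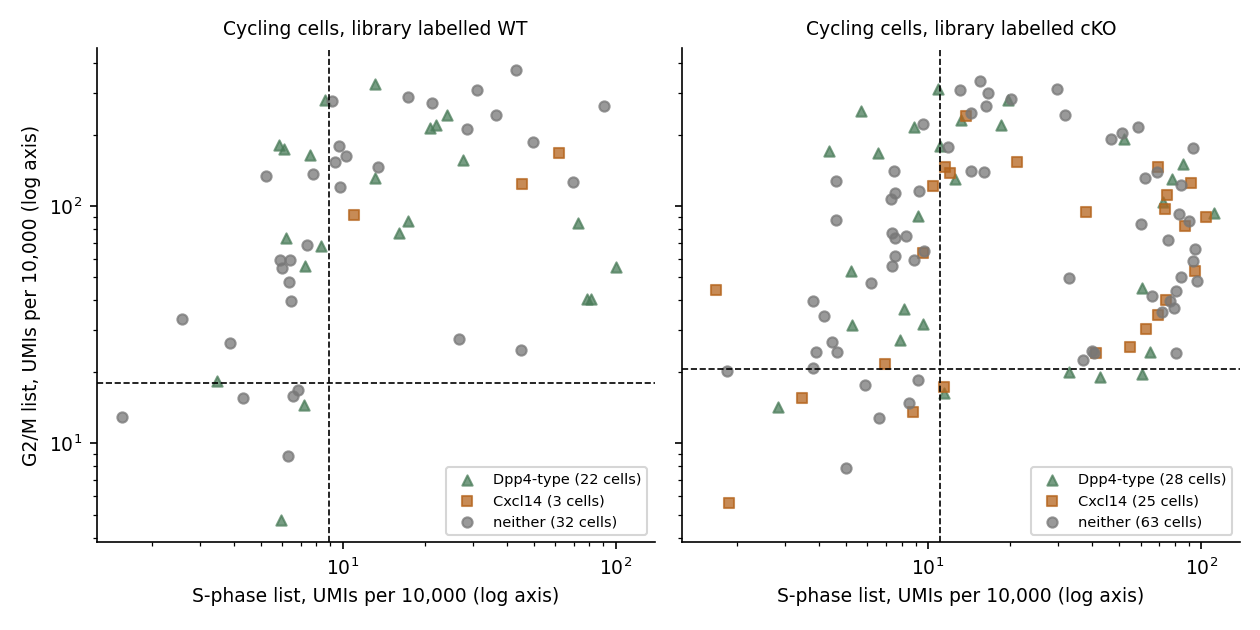
Each point is 1 cycling cell, with UMIs of the S-phase list per 10000 on the x axis and of the G2/M list on the y axis (both logarithmic), in the library labelled WT (left, 57 cells) and the library labelled cKO (right, 116 cells); shapes give the FAP type, and dashed lines the 95th percentile of the cells with 0 UMIs of the 5 genes. The upper quartile of the S-phase list is 27.5 in the library labelled WT and 65.4 in the library labelled cKO.

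FAPs of muscle are commonly divided into Dpp4-positive cells, which express Pi16, Sema3c, Anxa3 and Efemp1, and Cxcl14-positive cells richer in basement membrane and matrix genes. Cells with 25 or more summed UMIs of those 4 Dpp4-type genes per 10000 were called Dpp4-type, and cells with 5 or more Cxcl14 UMIs per 10000 were called Cxcl14 cells. In the library labelled WT, 22 of 57 cycling cells (38.6%, 25.996 to 52.4) were Dpp4-type, against 25% (23.6 to 26.4) of the cells with 0 UMIs. In the library labelled cKO the Dpp4-type share was 24.1% (28 of 116, 16.7 to 33.0), against 28.3% (26.9 to 29.8). The cKO-labelled interval covered the share of its comparison cells, and with 2 or more UMIs of the 5 genes the share was above it, at 29.4%. The WT-labelled interval reached down close to its comparison share, and covered it with 5 or more UMIs of the 5 genes, after thinning, with the threshold at 35 per 10000 and without Efemp1. Cxcl14 cells were 3 of 57 cycling cells (5.26%, 1.10 to 14.6) in the library labelled WT, against 14.2% of the cells with 0 UMIs, which the interval covered. They were 25 of 116 (21.6%, 14.5 to 30.1) in the library labelled cKO, against 24.2%. No cycling cell passed both thresholds, which allows a share of up to 5.26% and 2.59% by 3 counts, and 6.27% and 3.13% as exact upper limits. After thinning, the Dpp4-type shares of the same cycling cells were 36.4% and 22.1% and the Cxcl14 shares 5.45% and 21.2%.

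Seen from the types, the higher cycling share of the library labelled cKO lay outside the Dpp4-type cells. Of Dpp4-type cells, 22 of 1050 (2.10%) were cycling in the library labelled WT and 28 of 1251 (2.24%) in the library labelled cKO, a ratio of 1.07 (0.589 to 1.96). Of cells of neither type, 32 of 2484 (1.29%) and 63 of 2107 (2.99%) were cycling, a ratio of 2.32 (1.49 to 3.67). Of Cxcl14 cells, 3 of 576 (0.521%) and 25 of 1041 (2.40%) were cycling, a ratio of 4.61 (1.41 to 23.9) that rests on 3 cells in the library labelled WT. In the library labelled WT the cycling share was highest in Dpp4-type cells (1.32% to 3.16%), with an interval that overlapped that of cells of neither type (0.883% to 1.81%), and in the library labelled cKO it lay between 2.24% and 2.99% in every type. All cells that were not Dpp4-type together gave 1.15% and 2.81%, a ratio of 2.45 (1.64 to 3.74), and this interval overlaps that of Dpp4-type cells. The difference between these ratios has no replicate check. Over other choices of cells and thresholds, chosen after the data were seen, the ratio ran from 0.814 to 1.18 in Dpp4-type cells and from 1.97 to 2.92 in the others, which the Cxcl14 threshold cannot move. In Cxcl14 cells it ran from 2.40 to 10.1, and its interval included 1 with 2 or more UMIs of the 5 genes, after thinning and with the Cxcl14 threshold at 10 per 10000.

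**Figure D2:**
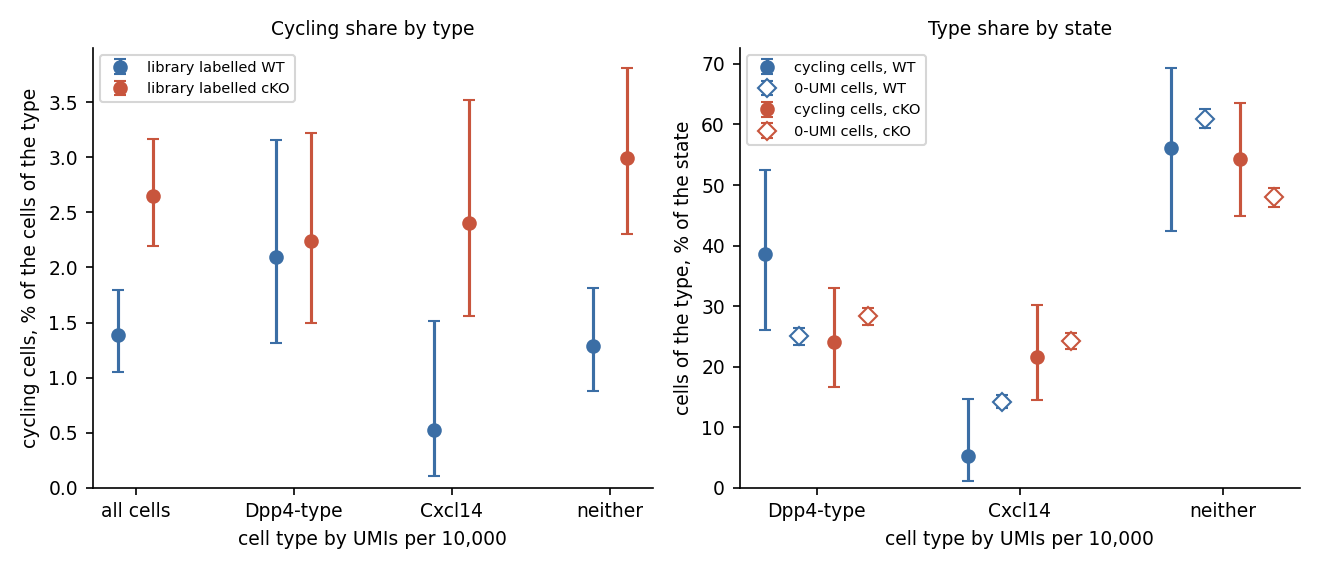
Left, cycling cells as a percent of all cells of each type; right, each type as a percent of the cycling cells (filled) and of the cells with 0 UMIs of the 5 genes (open), with exact 95% intervals for counting error. The libraries are close in Dpp4-type cells (2.10% and 2.24%) and apart in cells of neither type (1.29% and 2.99%).

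The cycling cells of each type carried the genes that define it. In the library labelled WT, Pi16 (a peptidase inhibitor of universal fibroblasts) was at 2650 CPM in Dpp4-type and 315 CPM in other cycling cells of neither type, and in the library labelled cKO at 2400 and 190 CPM. Cxcl14, a chemokine, was at 2114 CPM in the cKO-labelled Cxcl14 cycling cells and 29.9 CPM in the Dpp4-type ones. These genes set the types, so the values describe them. Pdgfra, the growth factor receptor of FAPs, was at 368 and 274 CPM over all cycling cells, against 347 and 302 CPM in the cells with 0 UMIs, and Ly6a, which encodes the sort antigen Sca1, at 1477 and 1529 CPM. The cycling cells thus carried both genes, although the sort itself asked for Sca1. Of 14 FAP identity genes, 3 and 2 were higher than in the cells with 0 UMIs. Some markers of leukocytes (Ptprc, Cd3e, Adgre1) and of muscle stem cells (Pax7, Myod1, Myf5) were at 0 UMIs in all 173 cells. Others were not, such as Lyz2 (1 and 30 UMIs) and Cd68 (1 and 9) of leukocytes and Des (2 and 2) of muscle. Cells high in markers of other muscle cells had been removed before deposit.

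The 10 leukocyte markers summed to 9 and 54 UMIs in the cycling cells (11.3 and 33.3 CPM, against 10.8 and 18.6 CPM in the cells with 0 UMIs), with 5 and 3 of the 10 markers at 0. Erythroid markers summed to 12 UMIs in each library, with 3 and 5 of 7 at 0. Endothelial markers, mainly Tek, summed to 66.5 and 84.5 CPM, below the 93.9 and 121 CPM of the comparison cells. The muscle stem cell list summed to 51.5 and 59.9 CPM, against 58.1 and 48.5 CPM in the cells with 0 UMIs. Vcam1 gave 26 and 51 of its UMIs in the cycling cells. Schwann cell markers summed to 570 and 574 CPM, against 470 and 519 CPM in the cells with 0 UMIs, with 3 and 5 of 10 at 0, and 431 and 795 of their 454 and 930 UMIs came from Pmp22. Mural cell markers summed to 168 and 104 CPM, against 167 and 118 CPM. The part of these transcripts in the results was not tested. Cycling cells had more UMIs than the comparison cells. The medians were 13959 against 12156 in the library labelled WT and 13614.5 against 10865 in the library labelled cKO. The rule counts raw UMIs, so deeper cells pass it more readily. Cells with 1 or 2 UMIs of the 5 genes had medians of 13706.5 and 12666. Whether cycling cells held more RNA cannot be told from these medians. No deposited cell had more than 4998 detected genes, and 26.3% and 25% of the cycling cells had 4500 or more, against 3.66% and 2.97% of the cells with 0 UMIs. Without the cells of 4500 or more genes the cycling shares were 1.07% and 2.06%. Scrublet called 2 and 1 cells as doublets, none of them cycling, in libraries whose authors had already gated doublets.

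The cell cycle machinery itself followed the choice of cells and is described without a test. Genes counted as measured where the mean CPM of cycling and comparison cells gave 20 or more expected UMIs in the cycling cells. Of these, 213 of 391 and 284 of 516 cell cycle genes were over 2-fold higher in cycling cells, and 1 and 0 were over 2-fold lower. Ccnb1 and Ccna2, the mitotic and S/G2 cyclins, were at 151 and 176 CPM in the WT-labelled cycling cells and 146 and 151 CPM in the cKO-labelled ones, and below 1 CPM in all comparison cells. Cdk1, the mitotic kinase, was at 309 and 279 CPM. Cdk4, the kinase of G1, differed less, with log2 ratios of 0.86 (0.62 to 1.08) and 0.82 (0.65 to 0.99). Of the D-type cyclins, its G1 partners, Ccnd1 had log2 ratios of -0.74 and 0.08 on 21 and 82 UMIs. Ccnd2 was lower by log2 ratios of -1.004 (-1.41 to -0.63) and -0.56 (-0.78 to -0.36), and Ccnd3 was at 0.02 and 0.07, with intervals that include 0 and a sign that turns under TMM factors. The S-phase genes with most UMIs summed over both libraries were Rrm1, a subunit of ribonucleotide reductase (log2 ratios 3.35 and 3.12), Tk1, thymidine kinase (8.20 and 7.73), and Tyms, thymidylate synthase (3.83 and 3.77).

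Between the libraries, the S-phase and G2/M lists differed in opposite directions in cycling cells. Over 61 measured G2/M genes the median log2 ratio of the library labelled cKO over the library labelled WT was -0.28 in cycling cells, and over 39 S-phase genes it was 0.50, beside 0.01 over all 5575 genes measured. In the cells with 0 UMIs the same medians were 0.26 and 0.33. Cks2, a subunit of cyclin-dependent kinases, was at 680 and 402 CPM, Cenpa, the centromeric histone, at 590 and 425 CPM, and Hmgb2, a chromatin protein of the high mobility group, at 714 and 559 CPM. All of these were lower in the cKO-labelled cycling cells.

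The 18 listed inhibitors of the cycle differed in direction. Cdkn2c, encoding the INK4 inhibitor p18, was at 153 and 172 CPM in cycling cells against 6.00 and 3.17 CPM, and Cdkn2d, encoding p19, at 210 and 148 CPM against 37.4 and 21.8 CPM. They were the only 2 of 15 measured inhibitors over 2-fold higher, in either library. Cdkn1c, the imprinted inhibitor p57 associated with quiescence, was lower, at 246 against 504 CPM and 188 against 355 CPM, log2 ratios of -1.03 (-1.24 to -0.83) and -0.92 (-1.08 to -0.75). Btg2, an antiproliferative transcription cofactor, had log2 ratios of -0.41 (-0.55 to -0.27) and -0.74 (-0.85 to -0.63). Cdkn1a, the p53 target p21, was not lower, with 0.44 (0.21 to 0.66) and 0.27 (0.14 to 0.39), and Cdkn1b, p27, had 0.36 (-0.08 to 0.77) and -0.02 (-0.39 to 0.33). Gas1, a growth arrest gene of the cell surface, had 0.04, below 0 under TMM factors, and -0.36. Cdkn2a, a locus of senescence and a known target of Polycomb, had 5 UMIs in the cycling cells of each library, too few to count as measured. It had a UMI in 8.77% and 3.45% of the cycling cells, against 0.0520% and 0.349% of the cells with 0 UMIs.

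Outside a set of 731 cell cycle genes, 260 of 4943 measured genes were over 2-fold higher (5.26%) and 123 over 2-fold lower (2.49%) in cycling cells of the library labelled WT. In the library labelled cKO, 280 of 7302 were over 2-fold higher (3.83%) and 148 over 2-fold lower (2.03%). The contrast is the one that chose the cells, so these shares are read as a description. Of 4922 genes measured in both libraries, 115 were over 2-fold higher in both and 25 over 2-fold lower in both, while 4 crossed 2-fold in opposite directions. The balance of higher and lower genes depended on the scaling. With TMM factors, which lowered the log2 ratios by 0.20 in the library labelled WT and 0.10 in the library labelled cKO, the counts were 152 higher and 235 lower, and 218 and 205, and 77 and 51 in both libraries. Leaving out each gene's top cycling cell gave 199 higher and 219 lower, and 222 and 247. That step takes UMIs from the cycling cells alone and so lowers the ratios by construction. Its counts therefore do not show which side was in excess. Over all non-cell-cycle genes the median log2 ratio by library totals was 0.11 and 0.01, and the changes below are read against it.

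The 10 named higher genes had varied roles. Selenoh, a nucleolar selenoprotein, was at 659 CPM in cycling cells against 51.7 CPM in the library labelled WT and 444 against 67.3 CPM in the library labelled cKO, log2 ratios of 3.67 (3.53 to 3.81) and 2.72 (2.60 to 2.84). Cmc2, an assembly factor of cytochrome oxidase, had log2 ratios of 2.28 and 2.33. Lsm2, of the ring that holds U6 RNA, had 1.96 and 1.87, and Snrpd1, an Sm core protein of spliceosomal particles, 1.76 and 1.71. Ncam1, a cell adhesion molecule, was at 221 against 34.8 CPM and 154 against 47.9 CPM. It had a UMI in 84.2% and 71.6% of the cycling cells and in 24.8% and 30.6% of the cells with 0 UMIs. Tubb6, a beta tubulin, had log2 ratios of 1.73 and 1.66, Sae1, of the enzyme that activates SUMO, 1.76 and 1.59, and Lmf2, a lipase maturation factor, 1.82 and 1.69. Lhfpl2, a membrane protein, had 1.70 and 1.88, and Brip1os, named for the strand opposite the repair gene Brip1, 2.25 and 1.60. These 10 genes kept log2 ratios of at least 1.55 when the comparison cells were weighted to the types of the cycling cells, matched in depth, or each gene's top cycling cell was left out.

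Among the 10 named lower genes were 4 of the extracellular matrix, Ogn, Eln, Ctgf and Podn. Ogn, osteoglycin, was at 249 against 746 CPM and 317 against 982 CPM, log2 ratios of -1.59 (-1.79 to -1.38) and -1.63 (-1.76 to -1.51). Eln, elastin, was at 298 against 1195 CPM and 349 against 865 CPM, although 3 cells held 51.1% of its cKO-labelled cycling UMIs. Ctgf, a matricellular protein, had log2 ratios of -1.69 and -1.77, and Podn, a small proteoglycan, -1.77 and -1.44. The share of cells with a Ctgf UMI was 31.6% of cycling against 43.7% of comparison cells in the library labelled WT. In the library labelled cKO these shares were close, at 24.1% and 24.2%. Anpep, aminopeptidase N, had -1.68 and -1.82, and Slfn5, a Schlafen gene, -2.38 and -1.65. Ndufa4l2, a mitochondrial protein of hypoxia, had -1.87 and -1.38, and Mustn1, a nuclear protein of muscle and skeleton, -1.08 and -1.21. Hspa1a, an inducible heat shock protein, had -1.06 and -1.66, and Ace, angiotensin-converting enzyme, -1.14 and -0.98. With comparison cells matched in depth or weighted to the types, these 10 genes stayed lower in both libraries, the nearest to 0 being Hspa1a in the library labelled WT at -0.80.

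**Figure D3:**
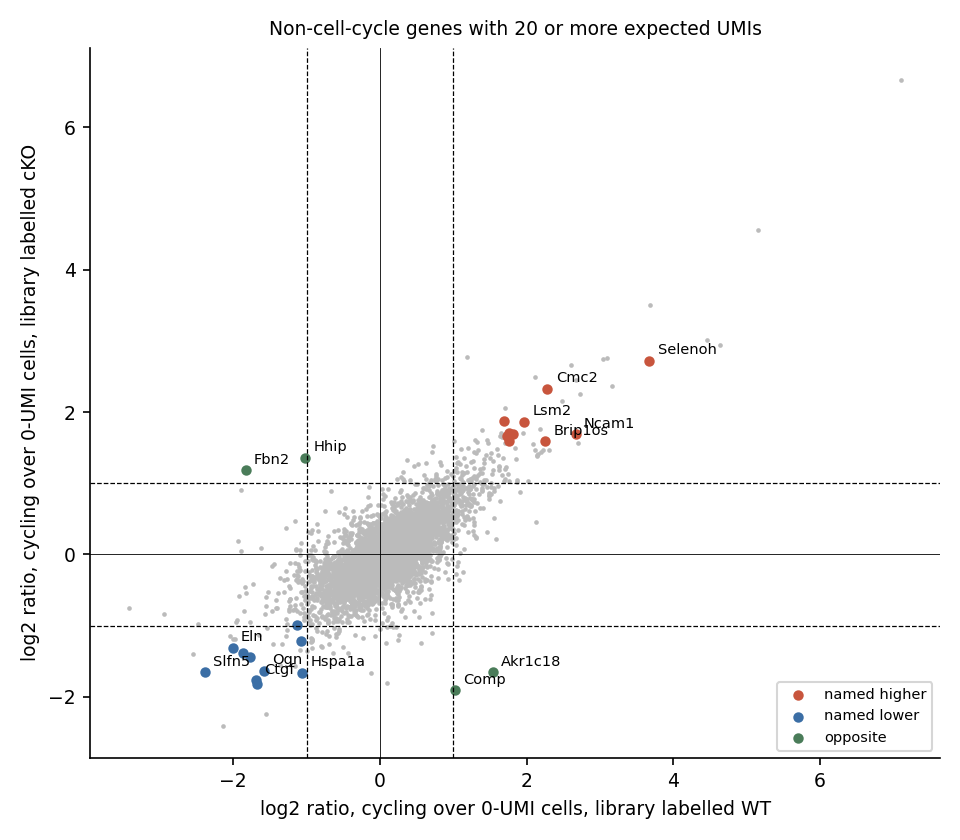
Each point is 1 of 4922 non-cell-cycle genes measured in both libraries, placed by its log2 ratio of cycling cells over cells with 0 UMIs in the library labelled WT (x axis) and the library labelled cKO (y axis); dashed lines mark 2-fold. Red and blue points are the 10 named higher and 10 named lower genes, and green points the 4 genes over 2-fold in opposite directions.

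The set of cell cycle genes was not complete. Several genes under the 50 expected UMIs asked of the named ones had larger ratios than these and were singled out after their values were seen, such as C330027C09Rik (log2 ratios 7.10 and 6.66), Lmnb2, lamin B2 (5.15 and 4.55), and Hmgb3, a chromatin protein (4.46 and 3.01). Dnajc9, a histone chaperone, had 3.09 and 2.76.

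Among gene lists, matrix genes were lower and biosynthetic genes slightly higher, by less than 2-fold for most. None of 17 measured collagens had a log2 ratio above 0 in the library labelled WT, with a median of -0.54, and 3 of 17 did in the library labelled cKO, with a median of -0.23, beside medians over all measured genes of 0.15 and 0.05. Col1a1, of type I collagen, was at 13444 against 21518 CPM in the library labelled WT and at 9117 against 9875 CPM in the library labelled cKO, and Col1a2, its partner chain, at 12755 against 21034 CPM and 9252 against 9369 CPM. For type I collagen the cycling cells and the comparison cells were thus closer in the library labelled cKO. Of 28 and 30 matrix glycoproteins and proteoglycans, 6 and 5 were over 2-fold lower (2.49% and 2.03% of all non-cell-cycle genes) and 0 and 1 over 2-fold higher (5.26% and 3.83%), with medians of -0.63 and -0.29. Postn, periostin, was an exception, higher by log2 ratios of 0.34 (0.27 to 0.41) and 0.30 (0.24 to 0.36). Of 14 FAP identity genes 3 and 2 were above 0, with medians of -0.32 and -0.15. Dcn, decorin, was at 8087 against 13917 CPM and 8169 against 11847 CPM.

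The lists of the FAP types followed the shares of cells only in part. In the library labelled WT the summed Dpp4-type list was at 7805 against 8087 CPM, although the Dpp4-type share was higher. The median of 17 Dpp4-type genes was 0.09 in the library labelled WT, with 10 above 0 (the median was below 0 under TMM factors), and -0.40 in the library labelled cKO, with 0 above 0. Anxa3, an annexin, had log2 ratios of 0.41 (0.26 to 0.56) and -0.23 (-0.38 to -0.09), and Ugdh, of hyaluronan precursor synthesis, 0.53 (0.37 to 0.68) and -0.26 (-0.39 to -0.14). Of the Cxcl14-type list, 7 of 14 genes were over 2-fold lower in the library labelled WT (median -1.04) and 2 of 15 in the library labelled cKO (median -0.30), beside 2.49% and 2.03% of all non-cell-cycle genes. Col15a1, a basement membrane collagen, was at 346 against 909 CPM and 716 against 1039 CPM, and Smoc2, a matricellular protein, at 475 against 1062 CPM and 253 against 431 CPM. Part of these lists defined the types, so the lists are not independent of the shares.

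Of ribosome biogenesis genes, 14 of 14 and 16 of 17 were above 0, with medians of 0.34 and 0.53. Medians over all measured genes were 0.15 and 0.05, so genes at large also leaned above 0. Over 2-fold higher were 0 and 1, close to the 5.26% and 3.83% of all non-cell-cycle genes. Nop56, a core protein of box C/D particles that modify ribosomal RNA, had log2 ratios of 0.92 (0.55 to 1.26) and 1.17 (0.94 to 1.39), and Ncl, nucleolin, 0.49 (0.31 to 0.66) and 0.54 (0.42 to 0.65). Ribosomal protein genes themselves went the other way, with 1 and 2 of 20 above 0 and medians of -0.24 and -0.14. All measured genes of nucleotide synthesis were above 0 (9 of 9 and 15 of 15, medians 0.51 and 0.75). Mthfd2, a mitochondrial folate enzyme, had 1.10 (0.62 to 1.54) and 1.48 (1.12 to 1.83), and Hprt, of purine salvage, 1.001 (0.65 to 1.33) and 1.10 (0.87 to 1.32). Oxidative phosphorylation genes had medians of 0.37 and 0.21, with 17 and 16 of 20 above 0. In glycolysis, Tpi1, triose phosphate isomerase, was higher (1.26 and 0.77) and Aldoa, aldolase A, lower (-1.77 and -0.95), around list medians of 0.15 and 0.02, both below 0 under TMM factors.

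Growth signals were somewhat lower in cycling cells. Of 13 and 15 measured genes of growth factor signalling 3 and 1 were above 0, with medians of -0.34 and -0.29, and none passed 2-fold. Igf1, insulin-like growth factor 1, was at 511 against 1000 CPM in the library labelled WT and 1321 against 1565 CPM in the library labelled cKO. Of the imprinted genes, H19 was at 619 against 877 CPM and 1206 against 1610 CPM, Meg3 at 1754 against 2984 CPM and 1747 against 2667 CPM, and Dlk1, a Notch-related surface protein, at 102 against 182 CPM and 375 against 330 CPM. Immediate early genes, which also respond to dissociation, had medians of -0.19 and -0.38, with 3 and 0 of 18 above 0.

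Bap1 is the catalytic subunit of a complex that removes ubiquitin from histone H2A, a mark laid down by Polycomb. Of 11 and 17 measured genes of Polycomb and DNA methylation, 4 in each library were over 2-fold higher in cycling cells, beside 5.26% and 3.83% of non-cell-cycle genes, and none over 2-fold lower. They were Ezh2, Uhrf1, Dnmt1 and Suz12, of which Uhrf1 is also in the S-phase list. The 5.26% and 3.83% leave out cell cycle genes and so do not apply to Uhrf1. Among cell cycle genes, 213 of 391 and 284 of 516 were over 2-fold higher. Ezh2, the H3K27 methyltransferase, was at 80.3 against 13.2 CPM and 90.1 against 17.7 CPM, log2 ratios of 2.61 (2.21 to 2.98) and 2.35 (2.08 to 2.60). Uhrf1 and Dnmt1, which keep DNA methylation through replication, had 5.73 and 1.66 in the library labelled WT and 5.03 and 2.02 in the library labelled cKO. Suz12, a partner of Ezh2, had 1.45 and 1.40. Ezh1, the methyltransferase of nondividing cells, was at 12.6 against 21.6 CPM and 13.6 against 25.2 CPM, on 10 and 22 UMIs. Asxl1 and Asxl2, cofactors of Bap1, had log2 ratios of 0.70 and 0.68 and of 0.10 and -0.01.

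**Figure D4:**
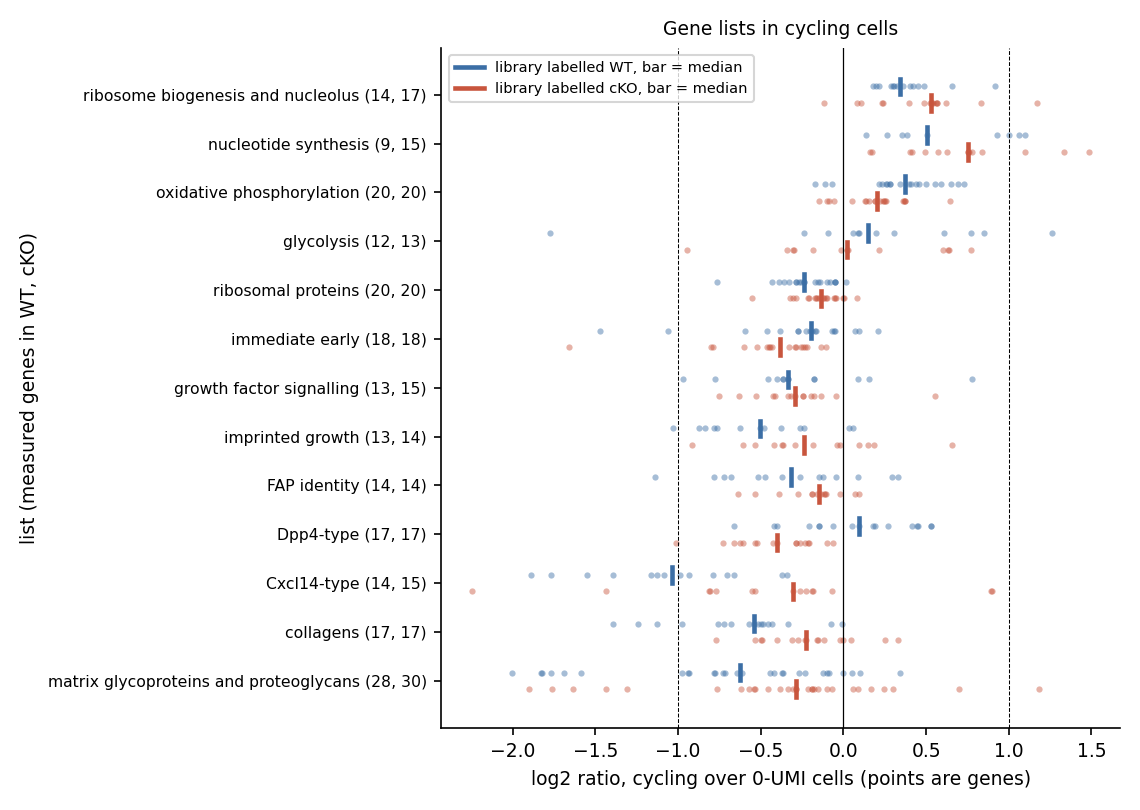
Points are genes of 13 lists with 20 or more expected UMIs, placed by the log2 ratio of cycling cells over cells with 0 UMIs of the 5 genes, blue for the library labelled WT and red for the library labelled cKO; bars are list medians and the numbers after each name count the measured genes in each library. Nucleotide synthesis lies above 0 in both libraries, and collagens and matrix glycoproteins lie mostly below.

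Comparing cycling cells between the libraries, 34 of 5575 genes were over 3-fold higher (0.61%) and 17 over 3-fold lower (0.305%) in the library labelled cKO. In the cells with 0 UMIs, 40 and 16 of the same 5575 genes passed 3-fold. The excess on the higher side depended on the cells and genes taken, with 7 higher and 7 lower after thinning, 6 and 22 in Dpp4-type cycling cells, 38 and 18 in the other cycling cells, and 320 and 497 with no minimum of UMIs. Of the 51 genes that passed in cycling cells, 15 also passed the same way in the cells with 0 UMIs and 43 had the same sign there. The share of all 5575 genes with the same sign in both groups of cells is not given here, so 43 of 51 stands without a background. Over the 5575 genes the median log2 ratio in the cells with 0 UMIs was 0.13.

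Fat cell genes led the higher side, and a few cells carried them. Fabp4, a fatty acid binding protein, had 0 UMIs in the WT-labelled cycling cells and 599 in the cKO-labelled ones. This was 98.2-fold higher with the 0 set to a floor of 3 counts over the group. Hp, haptoglobin, had 0 and 247 UMIs (at least 40.5-fold) and Car3, carbonic anhydrase 3, 0 and 238 (at least 39.0-fold). In the library labelled cKO, 3 cells held 84.8% of the Fabp4, 91.5% of the Hp and 91.6% of the Car3 UMIs. Without them the log2 ratios against the same floor were 3.87, 1.75 and 1.69. Over 7 fat cell genes (Adipoq, Plin1, Fabp4, Pparg, Car3, Cidec and Cd36) the cycling cells were at 6.28 and 610 CPM, against 8.50 and 68.7 CPM in the cells with 0 UMIs. Fabp4 and Car3 are among these 7, so the sum partly repeats the genes already named. The full list of 20 fat cell genes summed to 718 and 1605 CPM, against 1117 and 1086 CPM in the cells with 0 UMIs. Of this full list, 2 and 10 genes were measured. Over 2-fold higher than in the cells with 0 UMIs were 0 and 5, beside 5.26% and 3.83% of non-cell-cycle genes. For the 7 genes, leaving out the 3 cells with most of their UMIs in each library gave 1.34 and 143 CPM. At least 10 UMIs of the 7 genes were found in 7 of 116 cKO-labelled cycling cells (6.03%, 2.46 to 12.04). They were found in 0 of 57 WT-labelled ones, which allows up to 6.27% as the exact upper limit. In the cells with 0 UMIs the shares were 0.130% and 0.947%. The 3 leading cells had between 6 and 16 UMIs of the 5 cycle genes and between 3388 and 4667 detected genes. Whether they were doublets of a fat-forming and a cycling cell was not tested beyond the Scrublet calls, which named none of them.

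Other genes higher in the library labelled cKO had more UMIs outside the leading cells. Spon1, spondin 1 of the matrix, had 13 UMIs in 2 cells and 302 UMIs in 46 cells (16.3 and 186 CPM), and its ratio in the cells with 0 UMIs was also high (log2 2.74). Rbp4, the carrier of retinol, was at 40.2 and 231 CPM, Fabp5, another fatty acid binding protein, at 38.9 and 203 CPM, and G0s2, an inhibitor of fat breakdown, at 37.7 and 168 CPM. G0s2 had the opposite sign in the cells with 0 UMIs (log2 -0.63), and 3 cells held 60.1% of its cKO-labelled UMIs and 51.7% of those of Fabp5. Without the 3 leading cells of each library the log2 ratio of Fabp5 went from 2.38 to 1.79 and that of G0s2 from 2.16 to 1.36. Cxcl14 was at 119 and 487 CPM, a log2 ratio of 2.03 (1.72 to 2.35), and 1.60 in the cells with 0 UMIs. Without the leading cells the log2 ratio was 2.93 for Cxcl14, 3.47 for Rbp4 and 5.17 (against the floor) for Spon1. These rises are not read as results, since the step takes 3 of 57 WT-labelled but 3 of 116 cKO-labelled cells. The 3 cells held 63.2% of the WT-labelled and 28.9% of the cKO-labelled UMIs of Cxcl14. For Rbp4 they held 59.4% and 17.9%, and for Spon1 100% and 24.5%.

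On the lower side, Akr1c18, a dehydrogenase that inactivates progesterone, had 170 UMIs in 15 WT-labelled cycling cells and 13 UMIs in 7 cKO-labelled ones, 26.6-fold lower in the library labelled cKO. Of these UMIs, 3 cells held 62.4% in the library labelled WT and 69.2% in the library labelled cKO. Sfrp2, a secreted Wnt modulator, was at 330 and 63.6 CPM, log2 -2.38 (-2.72 to -2.04), and -2.33 in the cells with 0 UMIs. Myoc, myocilin, was at 464 and 118 CPM, Cryab, a small heat shock protein, at 272 and 77.1 CPM, and Nr1d1, a repressor of the circadian clock, at 108 and 32.7 CPM. For Myoc, 3 cells held 51.1% of the WT-labelled UMIs. Its log2 ratio went from -1.98 to -1.57 without the 3 leading cells of each library. Tgfbi, a matrix adhesion protein, was at 262 and 90.7 CPM, and Hspa1a at 138 and 49.4 CPM. Apoe, of lipid transport, was at 443 and 135 CPM, but 1 cell held 216 of its 353 WT-labelled UMIs. Without the 3 leading cells of each library the log2 ratio turned from -1.71 to 0.40 (-0.07 to 0.88). That step takes a larger part of the 57 WT-labelled than of the 116 cKO-labelled cells.

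**Figure D5:**
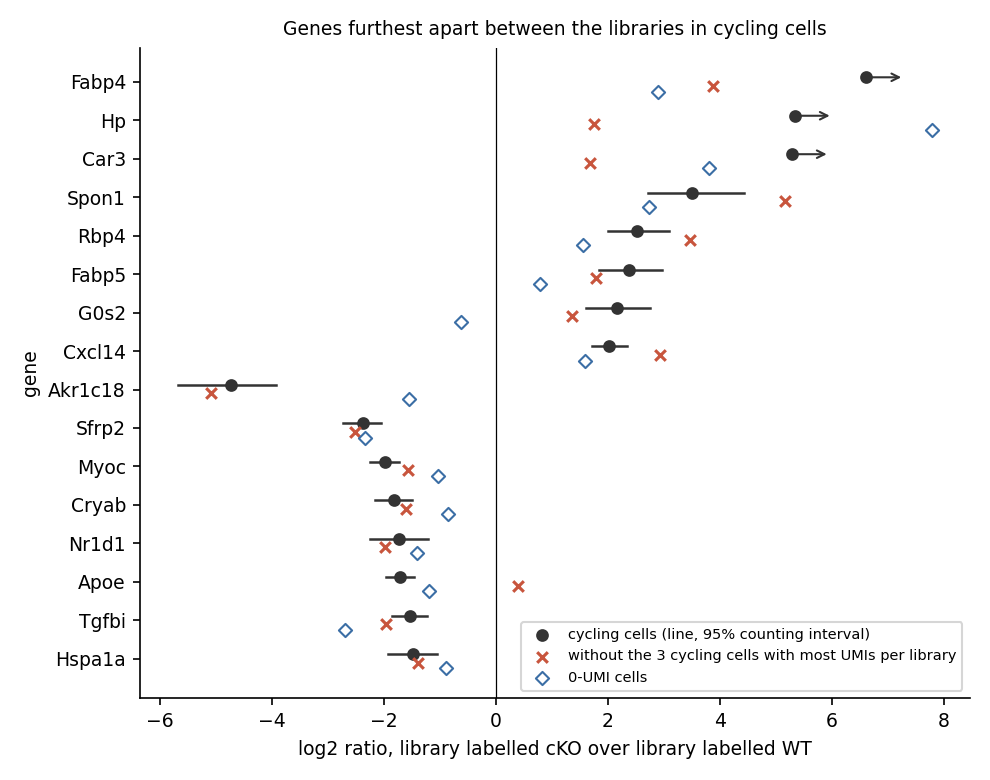
Log2 ratios of the library labelled cKO over the library labelled WT for the 8 highest and 8 lowest genes in cycling cells (black, lines are 95% counting intervals, arrows mark ratios against a floor of 3 counts that have no upper limit), without the 3 cycling cells with most UMIs in each library (red crosses, against the same floor where no UMI is left) and in cells with 0 UMIs of the 5 genes (blue diamonds). Apoe changes sign without those cells, and G0s2 differs in sign between the states. Leaving out 3 cells takes a larger part of the 57 WT-labelled than of the 116 cKO-labelled cells.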

How the data were processed

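Droplet scRNA-Seq of sorted FAPs gave a single library for each genotype. Per the study's methods and the submitters' processing notes, the authors aligned reads to mm10 with Cell Ranger 3.1.0, removed low-quality cells, doublets and non-FAPs in Seurat 3.2.1 (R 3.6.1), and deposited raw counts (UMIs per gene and cell) for 31053 genes, without normalization. The filter thresholds were not given in the sources used here.

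Cells with 3 or more summed UMIs of the 5 genes were compared with cells at 0 in the same library, on UMIs summed over cells and divided by the group total. Genes entered with 20 or more expected UMIs. A count of 0 took a floor of 3. Shares have Clopper-Pearson and ratios exact conditional binomial 95% intervals, both for counting error only, and no test was run. Cell cycle genes (731) came from hand lists, histones and Reactome sets (472 of 521 gene identifiers matched). Named genes were the 10 highest and 10 lowest non-cell-cycle genes by the smaller log2 ratio of the libraries (2346 eligible), the 8 highest and 8 lowest between libraries (2726 eligible), both with 50 or more expected UMIs, the list members with most UMIs, the inhibitors, the rule genes and Bap1. The members and lists were chosen with earlier results of these data known. Alternatives changed the member rule, depth, doublets, thresholds, scaling (TMM, edgeR 4.0.16) and comparison cells. The ratios were also run on simulated sums, drawn at random for each gene on its own. These sums leave out the clumping of UMIs in a few cells, so they do not check the intervals of clumped genes. Python 3.11.15, scipy 1.17.1, scanpy 1.11.5 (Scrublet) and R 4.3.3 were used.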

Additional observations from a re-analysis of the deposited data

Results flagged for a closer look

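The Dpp4-type share of cycling cells lay on opposite sides of that of the comparison cells in the libraries. It was higher in cycling cells than in cells with 0 UMIs by 13.6 percentage points in the library labelled WT and differed by -4.19 percentage points in the library labelled cKO. With 1 library per genotype the difference was not tested, and with 2 or more UMIs of the 5 genes the cKO-labelled share (29.4%) was above that of the comparison cells (28.3%).

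Of 4922 genes, 4 crossed 2-fold in opposite directions, and none of these differences was tested. Comp, a cartilage matrix protein, had log2 ratios of cycling over 0-UMI cells of 1.03 in the library labelled WT and -1.91 in the library labelled cKO. Its WT-labelled value rested on 3 cells, of which 1 held 22 of 33 UMIs, and was -0.52 without that cell. Hhip, a Hedgehog antagonist, had -1.02 (14 UMIs in 3 cells) and 1.36 (138 UMIs in 22 cells, 0.80 without the leading one). Fbn2, fibrillin 2, had -1.83 (17 UMIs in 11 cells) and 1.18 (94 UMIs in 20 cells, 0.83 without the leading one). Akr1c18 had 1.54 and -1.65, and without the leading cell of each library 1.13 and -2.16. With the comparison cells weighted to the 3 type shares of the cycling cells, all 4 kept both signs, Akr1c18 at 1.27 and -1.43.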

How the results depend on the processing

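No paired analysis was possible because the genotypes were sequenced as single libraries without replicate numbers. Each setting is given with the values that moved, as WT-labelled and cKO-labelled where both did. The cycling share was 1.95% and 3.27% with 2 or more UMIs of the 5 genes, and in the library labelled cKO 2.10% with 5 or more, 1.94% after thinning and 2.06% without cells of 4500 or more genes. With the Dpp4-type threshold at 15 per 10000 the share was 54.4% and 34.5% of cycling cells and 31.8% and 36.5% of cells with 0 UMIs. At 35 it was 21.0% and 21.5% of cells with 0 UMIs and 16.4% of cKO-labelled cycling cells, and without Efemp1 23.9% of cKO-labelled cells with 0 UMIs. Cxcl14 cells among cells with 0 UMIs were 19.7% and 28.0% at 3 per 10000 and 8.06% and 18.1% at 10.

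Non-cell-cycle genes past 2-fold numbered 383 (WT-labelled), 428 (cKO-labelled) and 140 (both). They numbered 187, 226 and 68 after thinning, 1252, 1480 and 549 at 1.5-fold, 94, 109 and 35 at 3-fold, 78, 84 and 17 with 100 expected UMIs, 2674, 2662 and 857 with no minimum, and 597, 712 and 332 with cell cycle genes kept. Without cells of 4500 or more genes 84 passed in both. The 51 genes past 3-fold between libraries became 14 after thinning, 189 at 2-fold, 10 with 100 expected UMIs, 817 with no minimum and 28 in Dpp4-type cycling cells only. Beyond what each setting's construction shows, such as fewer cells or UMIs, the cause was not tested. Other results moved by less than their counting interval, or for counts less than 1.5 times. Leaving out each gene's top cycling cell, chosen after the data were seen, gave 199 higher and 219 lower (WT-labelled), 222 and 247 (cKO-labelled) and 89 and 57 (both). That step lowers the ratios by construction, so its balance is not read as a result. Under TMM factors the balance of higher and lower genes turned in the library labelled WT (152 and 235). Between libraries it turned from 34 and 17 to 6 and 22 in Dpp4-type cycling cells and 320 and 497 with no minimum, and was 7 and 7 after thinning. Depth limits all gene comparisons to genes with 20 or more expected UMIs in 57 or 116 cells.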
